A study of Homo sapiens with 9 samples.

Results

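The baseline of this study is the transcriptome of MG-63 cells grown on bare Ti6Al4V, a titanium alloy with aluminium and vanadium used for bone implants. Its members are the 3 samples that the labels place on this surface, of 9 samples in all. On this surface the cells carried abundant messages of fibrous and beaded matrix, with SPARC at 782 to 818 FPKM, COL1A1 at 271 to 349.9 FPKM and the 3 main chains of collagen VI at 362 to 542 FPKM. Genes of early osteoblasts and of mineralization were divided: ATF4 at 188 to 199 FPKM, SPP1 at 2.03 to 6.21 FPKM and the phosphate importers SLC20A1 and SLC20A2 were on, whereas RUNX2 at 0.245 to 0.283 FPKM, ALPL at 0.354 to 0.708 FPKM and BGLAP at 0.133 to 0.25 FPKM stayed below 1 FPKM, and IBSP and DMP1 had no count in any sample. Genes known to be induced by interferon stood among the most abundant of all, led by BST2 at 1422 to 1472 FPKM.

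MG-63 is an established human osteosarcoma line, widely used as a stand-in for early osteoblasts. In normal bone, mesenchymal precursors commit to the osteoblast line under the transcription factors RUNX2 and SP7. They then lay down collagen I and its partner proteins, and later raise alkaline phosphatase (ALPL) and the mineral-binding proteins osteocalcin (BGLAP) and bone sialoprotein (IBSP). Cells buried in the mineral become osteocytes, which make DMP1 and the Wnt antagonist sclerostin (SOST).

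Per the labels, the cells were kept for 7 days on the metal in an osteogenic medium. It held dexamethasone, a glucocorticoid, at 100 nM, ascorbic acid, which collagen folding needs, at 50 µg/mL and beta-glycerophosphate, a source of phosphate, at 10 mM. The other samples were MG-63 on boronized or HA-bearing alloy under the same medium, and they are not compared here. No sample on plastic or in plain medium was among those used, so what the alloy or the medium adds to these levels cannot be told apart from the cell line itself. Total RNA was taken with TRIzol, all samples carry one batch name, and the labels do not say whether the 3 samples came from separate cultures, so their spread may be technical.

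Levels are FPKM as the authors deposited them, that is fragments per kilobase of gene and per 1000000 fragments, and values in a series are given for replicates 1, 2 and 3 in that order. A gene was called on where it reached 1 FPKM in all 3 samples and off where it stayed below 0.1 FPKM in all 3. The remainder lay between, and a gene with at least 1 FPKM in 1 sample and under 0.1 FPKM in another was called split. Of 17123 protein-coding genes, 10078 were on (58.9%), 3859 lay between and 3186 were off (18.6%). Over all 26747 rows with a gene symbol, 40.4% were on and 30.1% off. Counts of list members on and off below are to be read beside the 58.9% and 18.6% of protein-coding genes. The median protein-coding gene stood at 2.22 FPKM, and 19 protein-coding genes had a median of 1000 FPKM or more. No comparison between groups was made, so no test applies, and each value stands with its spread over the 3 samples.

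The 3 samples held 58464306, 63122541 and 60037791 counts, so that a gene with no count could still be present at up to 0.0513, 0.0475 and 0.05 CPM (counts per 1000000 counts), the level of 3 counts, counting error only. Replicate 1 stood apart from the other samples in several classes of RNA. Rows that overlap ribosomal DNA held 6.48% of its counts against 1.07% and 0.622% in replicates 2 and 3. The spliceosomal small nuclear RNAs summed to 211, 5.45 and 6.01 CPM, the 7SK RNA rows to 212, 4.47 and 2.76, and the 7SL rows to 492, 30.7 and 19.1. These RNAs carry no poly(A) tail. Messages of replication-dependent histone genes usually lack one too, and the 62 such genes summed to 287, 275 and 268 CPM. The 23 of them that were on, led by H2BC12, held 262, 268 and 259 CPM of that. Whether the messages of these 23 carried a tail was not tested. The 39 others summed to 24.8, 6.62 and 8.44 CPM, and 35 of the 39 were highest in replicate 1, 25 of them over 2-fold above both other samples, such as H1-5 with 155, 2 and 24 counts. Mitochondrial ribosomal RNA, at 12097, 5862 and 4731 CPM, was also highest in replicate 1. So were the small nucleolar and Cajal body RNAs (snoRNA and scaRNA), at 25.3, 12.8 and 12.4 CPM. The 13 mitochondrial protein genes lay close together, at 37456, 35843 and 34960 CPM. The common biological coefficient of variation from edgeR was 0.181 over the 3 samples and 0.138 without replicate 1, and the median gene with at least 1 FPKM had an SD of 0.12 on the log2(FPKM + 1) scale. Whether the make-up of replicate 1 moved the genes below was not tested. Of the 297 genes named in the text 12 had another state without it: TRBC2, ITM2A, PIK3R2, IFI30 and MSX2 were then on, and SP7, CDKN2A, CDKN2B, IGFBP5, ENPEP, RNU2-2P and RNU4-2 were then off.

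**Figure D1:**
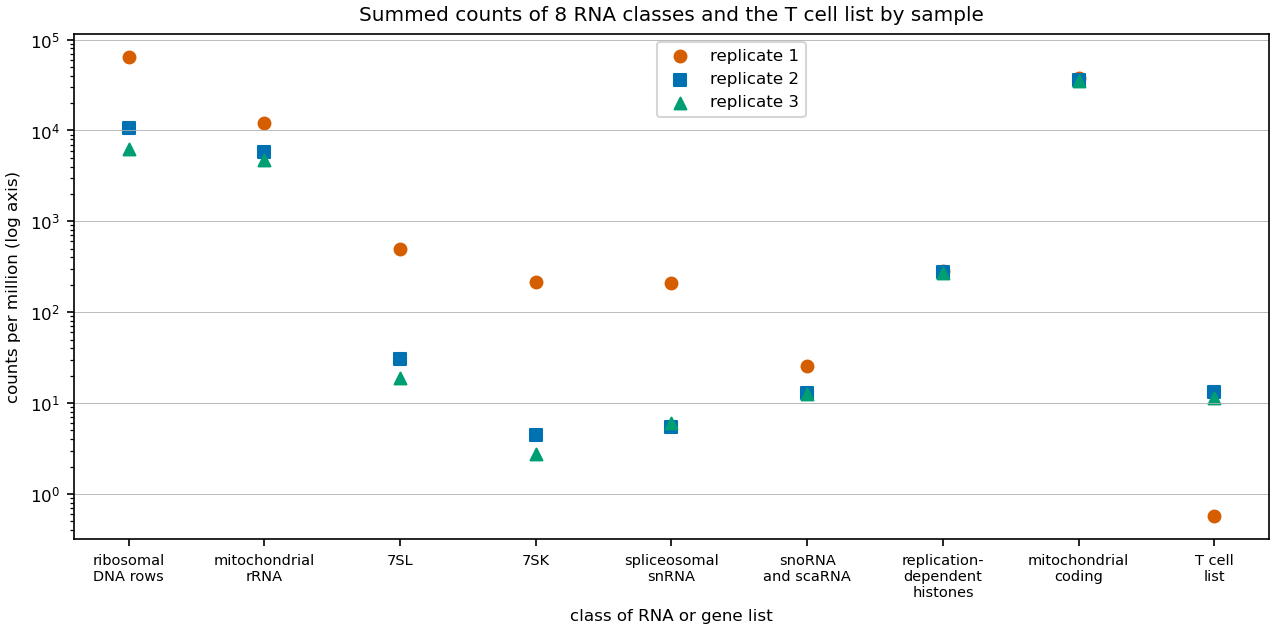
CPM (log axis) of 8 classes of RNA and of the 12-gene T cell list in each of the 3 bare Ti6Al4V samples, 1 point per sample. Replicate 1 lies above the other samples for ribosomal DNA, 7SL, 7SK and small nuclear RNA rows, and by less for mitochondrial ribosomal RNA, snoRNA and scaRNA. It lies below them for the T cell list, while mitochondrial coding and summed histone counts lie together.

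Mitochondrial genes made up most of the highest levels. Of the 25 genes with a symbol highest in median FPKM, 15 lay on the mitochondrial genome, led by MT-CO1, a subunit of cytochrome c oxidase, at 7098, 7009.9 and 6995 FPKM. MT-CO3, MT-ATP8, MT-ATP6, MT-CO2, MT-ND4L, MT-ND4, MT-CYB, MT-ND1, MT-ND2 and MT-ND5, all subunits of the respiratory chain or ATP synthase, stood between 1304 and 5003 FPKM. The mitochondrial ribosomal RNA MT-RNR2 read 5209, 3157 and 2576 FPKM, highest in replicate 1, and the transfer RNA rows MT-TN, MT-TY and MT-TC stood at 867 to 1398 FPKM. MT-ATP8 overlaps MT-ATP6, MT-ND4L overlaps MT-ND4, and MT-TY and MT-TC overlap each other in the table, so how reads were shared between them is uncertain.

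HSP90AB1 (chromosome 6, 44246166 to 44253888, GRCh38), a cytosolic chaperone, was the highest nuclear gene at 1735, 1848 and 1850.0 FPKM. BST2 and B2M, the light chain of MHC class I, followed at 1450.4, 1472 and 1422 and 1439.5, 1725 and 1421 FPKM. GAPDH, a glycolytic enzyme, stood at 1416, 1429 and 1516 FPKM and EEF1A1, a translation elongation factor, at 1103, 1306 and 1243 FPKM. VIM, the intermediate filament of mesenchymal cells, read 972, 1184 and 1348 FPKM, lowest in replicate 1 and highest in replicate 3. MMP2, the gelatinase that cuts denatured and type IV collagen, read 1044, 1036 and 1184 FPKM. TGFBI, an adhesive matrix protein induced by TGF-beta, read 1018, 1005 and 1216 FPKM, and the small proteoglycan BGN 986, 881 and 1045 FPKM. IFITM1, a membrane protein that restricts viral entry, closed the 25 at 905, 911 and 852 FPKM. Among nuclear genes outside the small RNAs, the next in order, named after their values were seen, were NDRG1, TMSB10, FTL, SPARC, RPS2 and FTH1. The iron-storage gene FTH1 read 438, 802 and 864 FPKM and the ribosomal protein gene RPS2 428, 810.0 and 900.2 FPKM, in both cases lowest in replicate 1, while FTL read 827, 840.5 and 823 FPKM with no such gap. EEF1A1, GAPDH, HSP90AB1, FTH1 and RPS2 have processed copies in the genome, 1 of which, EEF1A1P5, itself read 465, 637 and 634 FPKM, so the split of reads between parents and copies is uncertain.

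**Figure D2:**
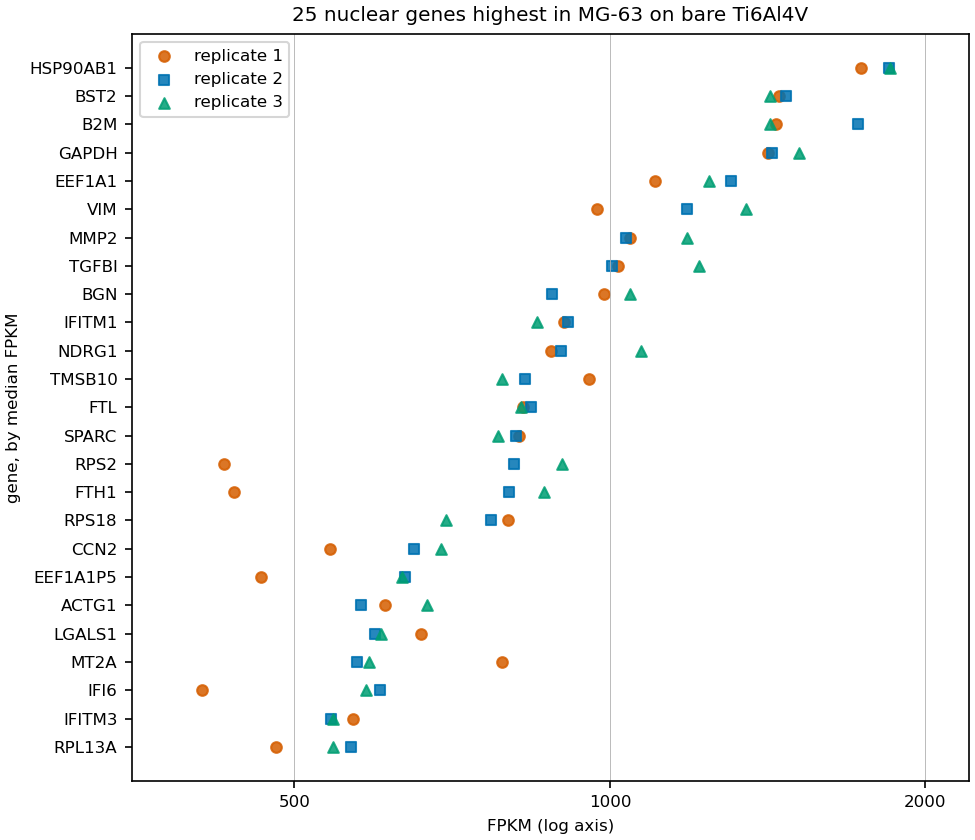
FPKM (log axis) of the 25 nuclear genes highest in median FPKM, 1 point per sample of MG-63 on bare Ti6Al4V, mitochondrial, ribosomal DNA and small RNA rows left out. HSP90AB1 leads at 1735 to 1850 FPKM, and RPS2, FTH1 and IFI6 are lowest in replicate 1.

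The FPKM scale of this table divides by a long gene length, and that choice moves the order of the matrix genes. The lengths implied by the deposited values had a median of 5117 bases over protein-coding genes against 3200 bases for the longest coding transcript in GENCODE 29. By transcript length VIM ranked 1 and TGFBI 4 among nuclear protein-coding genes, against 6 and 8 by FPKM. By raw counts COL6A3, a long chain of collagen VI, ranked 3, SPARC 9, COL1A2 13, FN1 14 and COL1A1 15. By FPKM the same genes ranked 34, 14, 58, 101 and 53. COL1A1 and COL1A2 were therefore among the 15 nuclear protein-coding genes with most counts, though not among the 25 highest by FPKM.

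All 4 bone matrix markers used to check the cells were on. SPARC (osteonectin, a calcium- and collagen-binding protein, chromosome 5, 151661096 to 151686975) read 818, 814 and 782 FPKM, a mean of 805 ± 19.6 FPKM (SD, n = 3). COL1A1 (chromosome 17, 50184101 to 50201632) and COL1A2 (chromosome 7, 94394895 to 94431227), the chains of collagen I, read 328, 271 and 349.9 and 307, 301 and 328 FPKM. POSTN (periostin, chromosome 13, 37562585 to 37598844), a matricellular protein of periosteum, read 25.3, 29.7 and 27.7 FPKM and lay 9.13- to 13-fold below COL1A1 in the 3 samples. The highest sample exceeded the lowest by 1.05-fold for SPARC, 1.29-fold for COL1A1, 1.09-fold for COL1A2 and 1.17-fold for POSTN.

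Of the 15 bone matrix genes, 12 were on (80.0%, against 58.9% of all protein-coding genes), with a median of 39 FPKM against 2.22 FPKM over all protein-coding genes. BGN led the group, followed by SPARC and the collagen I chains. COL5A2, a chain of the collagen V that nucleates collagen I fibrils, read 203, 230.3 and 223 FPKM, and its partner COL5A1 33.7, 32.9 and 37.6 FPKM. The adhesive glycoproteins FN1 and THBS2 read 182, 146 and 182 and 177, 168 and 201 FPKM, THBS1 39, 38.8 and 40.0 FPKM and TNC 31.8, 29.1 and 35.5 FPKM. ASPN, a small proteoglycan that binds collagen, was just on at 1.66, 2.34 and 2.14 FPKM. CHAD lay between the thresholds at 0.751, 0.506 and 0.677 FPKM. COL11A1, whose chain joins fibrils in cartilage and early bone, was off at 0.0996, 0.00955 and 0.0158 FPKM, just under the limit in replicate 1. With TMM or DESeq2 scaling it lay between. The bone proteoglycan OMD was off as well, read at 0.0146 FPKM in replicate 1 and at 0 in replicates 2 and 3.

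Of the 43 collagen genes 22 were on (51.2%, against 58.9% of all protein-coding genes), 7 lay between and 14 were off. The highest were the chains of collagen VI, the beaded filament around cells: COL6A2 read 456, 443 and 542 FPKM, COL6A3 415, 430.5 and 495 and COL6A1 407, 362 and 443. In each of the 3 samples all 3 chains exceeded both collagen I chains and COL3A1, which read 313, 314 and 316 FPKM. By length of the longest coding transcript COL1A2 moved to rank 48, ahead of COL6A1 at rank 59, so that order depends on the length used. COL2A1, the main collagen of cartilage, and COL10A1, that of hypertrophic cartilage, were off.

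Of the 12 early osteoblast genes, 4 were on, 6 lay between and 2 were off, a smaller share on than the 58.9% of protein-coding genes. ATF4, which drives amino acid supply and late osteoblast genes, was by far the highest at 188, 196 and 199 FPKM, and it is a stress-response factor of many cell types. MSX1, a homeobox factor of craniofacial and limb mesenchyme, read 5.25, 6.51 and 7.84 FPKM, and DLX3, a homeobox factor of mineralizing tissues, 4.27, 3.48 and 4.0 FPKM. TWIST1, which holds RUNX2 in check in precursors, read 1.12, 1.21 and 1.79 FPKM. MSX2 lay between at 0.659, 1.46 and 1.21 FPKM and was on without replicate 1.

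RUNX2, the master factor of the line, stood well below 1 FPKM in all samples at 0.283, 0.252 and 0.245 FPKM, from 147, 137 and 126 counts. SP7 (osterix), which acts downstream of RUNX2, had 24, 0 and 0 counts, so that every read came from replicate 1 and the gene was off without it. DLX5, a homeobox activator of RUNX2 and SP7, was off with 4, 0 and 0 counts, and DLX6 was off with 4, 0 and 0 counts. ALPL, which frees phosphate for mineral, read 0.552, 0.354 and 0.708 FPKM from 104, 70 and 132 counts, and PTH1R, the parathyroid hormone receptor, 0.158, 0.191 and 0.292 FPKM.

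Of the 15 genes of the mineralization list, 5 were on (33.3%, against 58.9% of all protein-coding genes), 7 lay between and 3 were off, with a median of 0.552 FPKM. The 3 off stand beside 18.6% off over all protein-coding genes. The phosphate importers SLC20A2 and SLC20A1 read 17.5, 16.4 and 17.9 and 11.2, 11.8 and 12.6 FPKM, the pyrophosphate exporter ANKH 10.3, 10.4 and 11.1 FPKM, and STC2, a secreted regulator of calcium and phosphate, 20.2, 19.9 and 24.1 FPKM. SPP1 (osteopontin) was on at 6.21, 2.09 and 2.03 FPKM, highest in replicate 1, which exceeded the lowest sample by 3.06-fold. PHEX, a protease of osteoblasts and osteocytes, lay at the threshold at 1.06, 0.992 and 0.96 FPKM. MGP, an inhibitor of mineral growth, read 0.607, 0.522 and 0.921 FPKM and ENPP1, which makes pyrophosphate, 0.522, 0.343 and 0.594 FPKM.

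BGLAP read 0.133, 0.25 and 0.171 FPKM from 9, 17 and 11 counts, above the threshold for off. By FPKM it lay 46.8-, 8.36- and 11.9-fold below SPP1. SPP1 had 2839, 1005 and 927 counts, so the size of these folds depends on the gene lengths used. SMPD3, a matrix vesicle sphingomyelinase, read 0.0805, 0.237 and 0.181 FPKM. IBSP had no count in any sample. PHOSPHO1, the phosphatase that starts mineral inside matrix vesicles, was off at 0.0528, 0.0503 and 0 FPKM, and so was FETUB. Of the 7 osteocyte genes, CAPG, PDPN and HYOU1 were on at 130.5, 144 and 144, 49.8, 53.2 and 54.1 and 10.1, 11.1 and 10.4 FPKM. These 3 are also expressed in many other cells, CAPG as an actin-capping protein and HYOU1 as a chaperone. SOST was off at 0, 0.0262 and 0.0277 FPKM and DMP1 had no count.

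**Figure D3:**
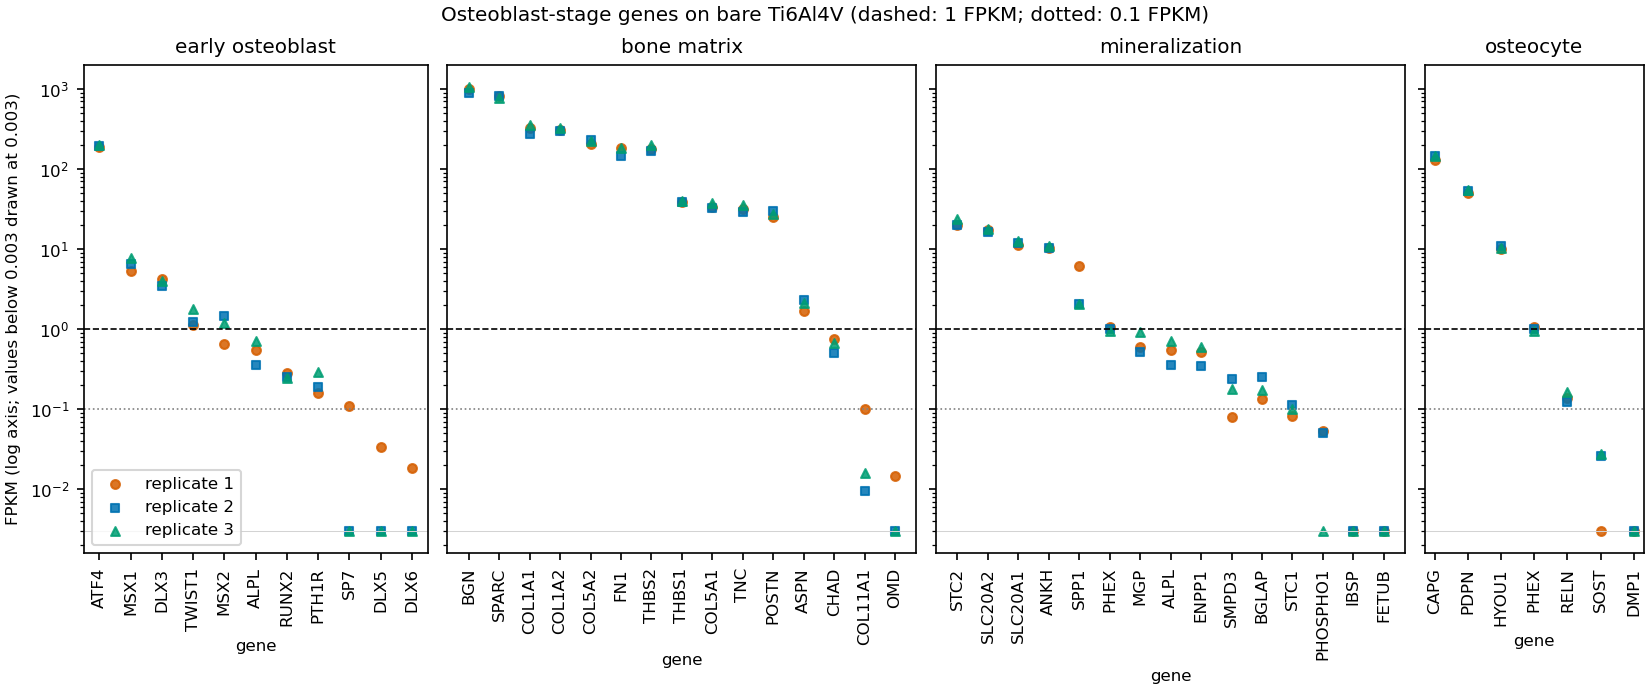
FPKM (log axis) of the early osteoblast (1 of 12 not drawn), bone matrix, mineralization and osteocyte genes in the 3 bare Ti6Al4V samples, with lines at 1 FPKM (on) and 0.1 FPKM (off) and values below 0.003 drawn at 0.003. Most bone matrix genes lie above 10 FPKM, as do some genes of the other panels, such as ATF4, STC2 and CAPG. RUNX2, ALPL and BGLAP lie between the lines and IBSP and DMP1 at 0.

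Signals from osteoblasts to osteoclasts were unequal. CSF1, the growth factor of osteoclast precursors, read 156, 173 and 184 FPKM and TNFRSF11B (osteoprotegerin), the decoy that traps RANKL, 57.4, 62.9 and 54.3 FPKM. The RANKL gene TNFSF11 was off, with 0, 4 and 0 counts. SEMA3A, which restrains osteoclasts, was on at 7.38, 10.5 and 8.67 FPKM. Of the 9 osteoclast genes 3 were on, led by ITGB3 at 2.9, 2.33 and 2.51 FPKM and NFATC1 at 2.31, 2.36 and 2.58 FPKM, whereas the osteoclast genes MMP9, DCSTAMP and CALCR were off. CTSK, the collagen-cleaving cathepsin, lay at the threshold at 0.927, 1.09 and 0.941 FPKM.

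The cells read as mesenchymal. Of 15 mesenchymal and fibroblast genes 14 were on, with VIM, COL3A1, CD44, S100A4 and PDGFRA the highest. CD44, the hyaluronan receptor, read 185, 197 and 183 FPKM and S100A4, a calcium-binding protein of motile cells, 172, 176 and 154 FPKM. MCAM was the exception, named after its values were seen, at 0.563, 0.106 and 0.11 FPKM, highest in replicate 1. The tendon list had 3 genes with a row, of which MKX, a homeobox factor of tendon, was on at 16.6, 19.7 and 20.6 FPKM and EGR1, an immediate early factor, at 5.3, 4.67 and 5.09 FPKM, while SCX had a value above 0 in replicate 3 alone.

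The labels call the cell type osteosarcoma, epithelial-like. Of 12 epithelial genes 4 were on, 2 lay between and 6 were off. The keratins of simple epithelia were on: KRT18 read 13.5, 18.8 and 21.7 FPKM, KRT8 10.1, 13.9 and 13.9, KRT7 3.41, 4.83 and 5.57 and KRT19 3.41, 4.05 and 4.82. EPCAM, an epithelial adhesion protein, lay between at 0.319, 0.215 and 0.257 FPKM, and CDH1 (E-cadherin) was off at 0.0355, 0.0834 and 0.0313 FPKM. KRT5 of stratified epithelia and the epithelial regulator GRHL2 were off as well. The summed level of the whole list was 31.7, 42.1 and 46.4 FPKM, and 4 keratins held nearly all of it. KRT8 and KRT18 have many processed copies, so their values are uncertain.

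Few genes of other lineages were on. In RNA from a whole culture, few cells with a gene and little of its RNA in many cells cannot be told apart. Of 11 chondrocyte genes 2 were on, SOX9 at 2.22, 2.32 and 2.09 FPKM and COL11A2 at 1.7, 1.76 and 1.35 FPKM, and 7 were off, among them COL2A1, with 4, 0 and 0 counts, and ACAN, with no count in any sample. Of 8 adipocyte genes only FABP4 was on, at 1.05, 1.04 and 1.24 FPKM, 4 lay between, and ADIPOQ, LEP and CIDEC were off. Of 10 muscle genes only ACTA2, smooth muscle actin, was on at 5.29, 4.66 and 5.38 FPKM, 4 lay between and 5 were off, among them MYOD1, MYOG and CKM. Of 7 endothelial genes only CDH5 (VE-cadherin) was on, at 3.99, 3.26 and 4.23 FPKM, 2 lay between and 4 were off, among them VWF, KDR and TIE1. Of 7 neural genes only TUBB3, a tubulin also made by many tumour lines, was on at 28.6, 25.2 and 31.8 FPKM, 3 lay between and 3 were off, among them SOX10 with no count. Of 7 monocyte genes CD68 and CD14 were on at 25.3, 25.1 and 30.5 and 5.49, 7.28 and 7.77 FPKM, whereas PTPRC, CSF1R and LYZ, which mark blood cells or macrophages, were off. None of the 4 pluripotency genes, 5 liver genes, 3 B cell genes or 3 erythroid genes with a row was on, and 2, 2, 1 and 3 of them were off.

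T cell genes followed the samples, though none of the 12 on the list was on in all 3. Of these genes 7 lay between and 5 were off. The 12 genes of the T cell list summed to 33 counts in replicate 1, of 58464306, and to 829 and 675 counts in replicates 2 and 3. In replicate 1, 9 of the 12 genes had no count, against 2 in each of the other samples. TRBC2, a constant region of the T cell receptor beta chain, read 0.349, 5.98 and 4.35 FPKM, CD3E 0, 0.58 and 0.543 FPKM and LCK, a T cell kinase, 0, 0.519 and 0.548 FPKM, whereas CD2 and TRAC had no count in any sample. TRBC2 held most of the summed level of the list, which was 0.389, 8.08 and 6.48 FPKM. TRBC1 and TRBC2 are near-identical, so their split is uncertain. The same 2 samples alone held the cytokine receptor chain IL2RG, at 0, 0.904 and 0.711 FPKM, LEF1, at 0, 0.454 and 0.316 FPKM, and ITM2A, at 0, 5.0 and 3.82 FPKM. IL2RG and LEF1 were named after their values were seen. What brings these genes into replicates 2 and 3 was not tested.

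**Figure D4:**
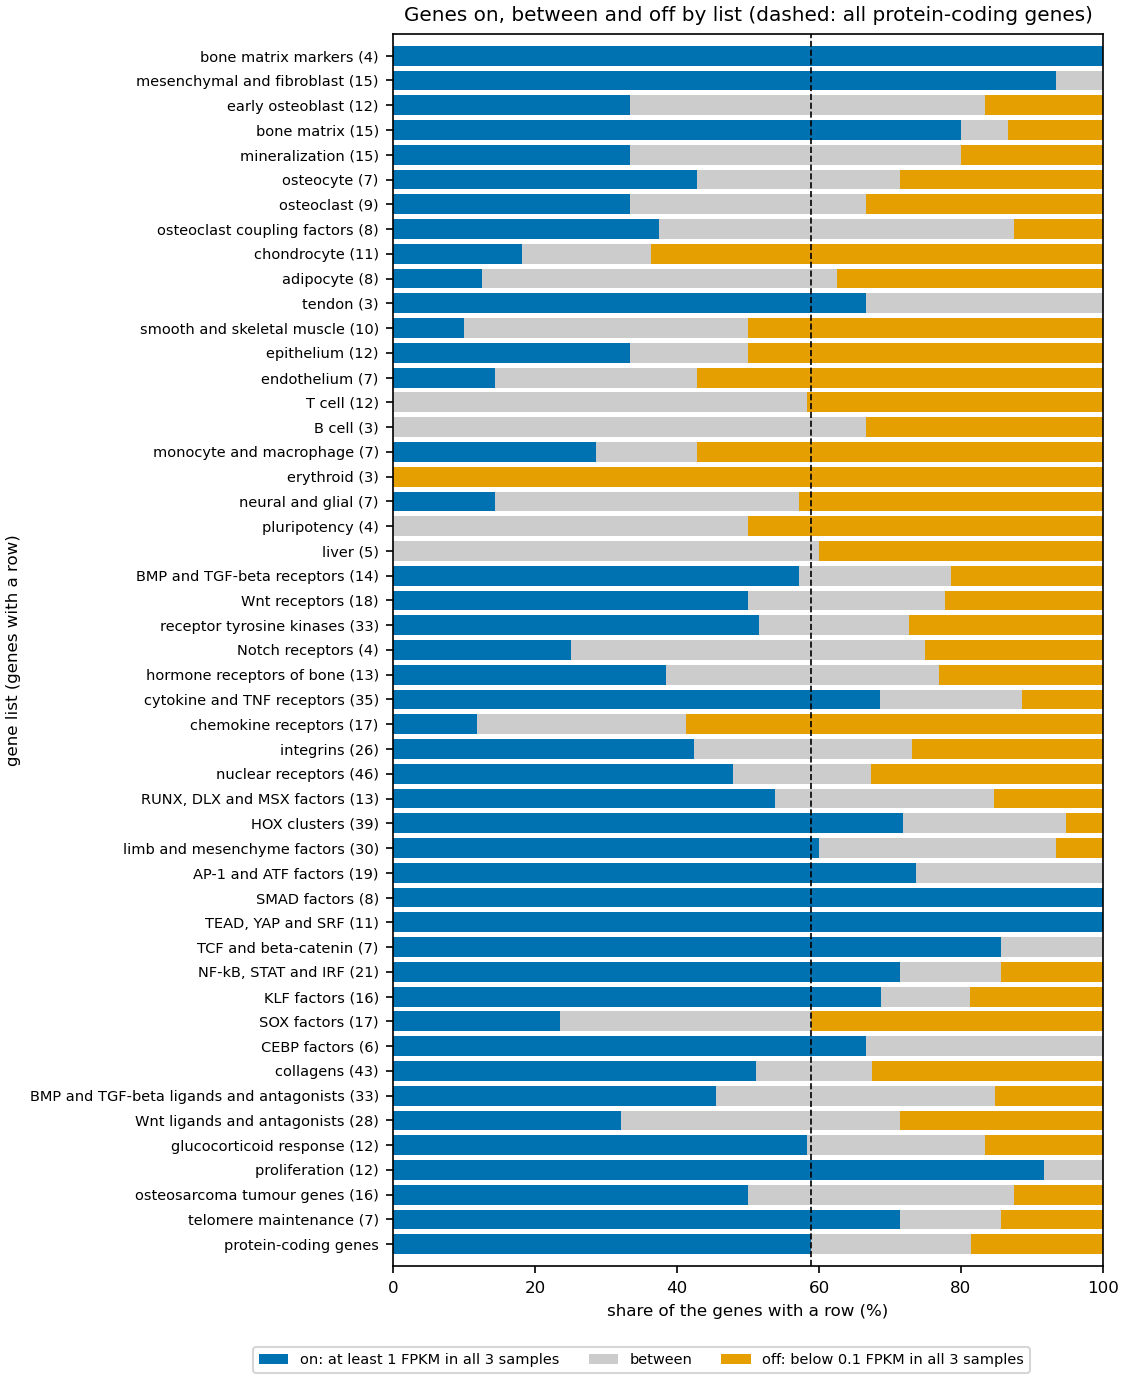
Share of the genes with a row that were on, between and off in each of 48 gene lists, in the 3 bare Ti6Al4V samples, with all 17123 protein-coding genes at the bottom and a dashed line at their 58.9% on. SMAD, TEAD and mesenchymal genes lie above the line, and chondrocyte, endothelial, muscle and T cell genes below it.

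Of 206 receptor genes with a row, 99 were on (48.1%, against 58.9% of all protein-coding genes) and 56 off, with a median of 1.01 FPKM. ITGB1, the beta subunit shared by collagen and fibronectin receptors, was the highest at 122, 148 and 139 FPKM. Of 26 integrins 11 were on (42.3%). ITGB5, which pairs with the alpha V subunit, read 35.4, 36.3 and 44.1 FPKM, the laminin-binding ITGA3 32.1, 34.2 and 36.3, the collagen-binding ITGA11 29.1, 29.8 and 32.2 and the fibronectin-binding ITGA5 24.5, 25.2 and 29.3. The leukocyte subunits ITGAM, ITGAL and ITGAX were off.

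Of 33 receptor tyrosine kinases 17 were on (51.5%, against 58.9% of all protein-coding genes) and 9 off. PDGFRA, a receptor for platelet-derived growth factor, read 81.9, 98.2 and 94.1 FPKM, and its relative PDGFRB 28.8, 27.6 and 30.6 FPKM. FGFR4 read 79.5, 77.4 and 82.7 FPKM, above FGFR1, which was named after its values were seen and read 16.7, 16.9 and 17.9 FPKM. The other members of that family, FGFR2 and FGFR3, chosen in the same way, lay between at 0.2, 0.24 and 0.178 and 0.0746, 0.0886 and 0.117 FPKM. The collagen receptor DDR2 read 58, 74.1 and 67.8 FPKM and AXL, the receptor for GAS6, 38.1, 35.5 and 40.3 FPKM. ERBB4 and KDR were off.

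Of the 14 BMP and TGF-beta receptors 8 were on (57.1%, close to the 58.9% of all protein-coding genes), and they covered both type I and type II chains. The co-receptor ENG read 36.1, 34 and 39.3 FPKM, TGFBR2 15.7, 16.9 and 17.1, TGFBR1 8.78, 10.3 and 9.54, BMPR2 6.04, 6.91 and 6.73 and BMPR1A 5.89, 6.99 and 6.52. BMPR1B, a second type I receptor for BMPs, was off. Of 18 Wnt receptors 9 were on (50.0%), led by the co-receptor LRP5 at 15.5, 14.8 and 18.9 FPKM, RYK at 13.3, 14.3 and 13.5 FPKM and FZD2 at 11, 12.9 and 14.1 FPKM. LGR5, LGR6 and FZD10 were off. Among the Notch receptors NOTCH2 was on at 15.1, 16.3 and 18.1 FPKM, NOTCH1 and NOTCH3 lay between, and NOTCH4 was off. The 1 receptor of this family that was on exceeded NOTCH1, at 0.685, 0.749 and 0.963 FPKM, by 18.9- to 22.1-fold.

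Of the 13 hormone receptors of bone with a row 5 were on, among them the prostaglandin receptor PTGER2 at 4.5, 4.48 and 5.4 FPKM. The calcitonin receptor CALCR and the prostaglandin receptors PTGER1 and PTGER3 were off. Cytokine and TNF receptors were on for 24 of 35 genes, led by TNFRSF1A at 44.8, 48.6 and 50.8 FPKM, IL6ST, the signal chain of the interleukin-6 family, at 35.3, 49 and 41.2 FPKM, IL4R at 33.2, 30.9 and 34.1 FPKM and IL13RA1 at 27.9, 30.9 and 30.3 FPKM. Chemokine receptors were on for 2 of 17 genes, and both were scavenging rather than signalling receptors: ACKR3 at 23, 21.6 and 23 FPKM and ACKR4 at 7.25, 8.61 and 5.61 FPKM. CXCR3, CCR2 and CCR3 had no count in any sample.

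Nuclear receptors were on for 22 of 46 genes (47.8%, against 58.9% of all protein-coding genes). RXRB, the shared partner of many of them, read 44.5, 51.2 and 52.2 FPKM, NR2F1 29.3, 27.5 and 29.6 FPKM and RARG, a retinoic acid receptor, 18, 17.7 and 20.6 FPKM. NR3C1, the receptor through which the dexamethasone of the medium acts, read 16.1, 19.4 and 18.3 FPKM. VDR, the vitamin D receptor, was named after its values were seen and read 5.28, 5.17 and 5.77 FPKM. The oestrogen receptor ESR1, the progesterone receptor PGR and the mineralocorticoid receptor NR3C2 were off. Of 12 genes known to respond to glucocorticoids 7 were on (58.3%), close to the 58.9% of all protein-coding genes. ANGPTL4 read 32.3, 36.1 and 51 FPKM, DUSP1 17.8, 24.6 and 24.8, GLUL 21.6, 22.8 and 21.9, ERRFI1 14.8, 16.2 and 18.1 and KLF9 5.25, 6.46 and 6.62, while ZBTB16 and MAOA were off. With no sample in plain medium these values are levels, not a response.

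Of 187 transcription factor genes with a row, 126 were on (67.4%, against 58.9% of all protein-coding genes) and 19 off, with a median of 3.61 FPKM. After ATF4 the highest was PITX1, a hindlimb homeobox factor, at 56.9, 83 and 93.2 FPKM. The AP-1 subunits JUNB, JUN and FOSL1 read 41.4, 70.6 and 80.3, 38.4, 51.6 and 56.6 and 16.7, 19.5 and 22.9 FPKM. WWTR1 (TAZ) and YAP1, the co-activators of the Hippo pathway, read 44.3, 53.2 and 51.1 and 23, 25.3 and 24.4 FPKM. SMAD3, which carries TGF-beta signals, read 32.1, 32.9 and 36.3 FPKM, ZEB1, a repressor of epithelial genes, 23.1, 31 and 26.2 FPKM and STAT3 23.4, 26.1 and 27.3 FPKM. All 8 SMAD genes and all 11 TEAD, YAP and SRF genes were on in all samples.

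Replicate 1 was the lowest sample for several of these factors. TWIST2 read 12.9, 27.9 and 38 FPKM, CEBPD 16.9, 45.2 and 63.2 FPKM and CEBPB 2.34, 13.4 and 19.8 FPKM, so that the highest sample exceeded replicate 1 by 2.94-fold, 3.73-fold and 8.47-fold. Of 10057 protein-coding genes on with a symbol, 69 were more than 2-fold below and 11 more than 2-fold above the mean of the other samples in replicate 1. Among those below it were CITED4, a transcriptional co-factor, at 1.51, 13.7 and 15.2 FPKM, and ID1, a target of BMP signalling, at 23.3, 92.5 and 105 FPKM. Among those above it was HMOX1, haem oxygenase, at 35.9, 6.77 and 8.14 FPKM. CITED4, ID1 and HMOX1 were named after their values were seen.

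Within the RUNX, DLX and MSX family the order was DLX4 at 8.05, 7.97 and 9.71 FPKM, MSX1, CBFB at 4.66, 4.82 and 4.86 FPKM, RUNX3 at 4.56, 3.91 and 4.44 FPKM and DLX3. CBFB is the common partner of the RUNX proteins. RUNX3 exceeded RUNX2 by 15.5- to 18.1-fold in the 3 samples. RUNX1, named after its values were seen, read 1.5, 1.69 and 1.99 FPKM and lay between them. Of 17 SOX genes 4 were on, 6 lay between and 7 were off. Those on were SOX12 at 5.59, 6.35 and 7.59 FPKM, SOX4 at 1.8, 2.55 and 2.81 FPKM, SOX9, and SOX13 at 1.5, 1.52 and 1.3 FPKM.

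HOX genes, which record position along the body axis, were on for 28 of 39 genes (71.8%, against 58.9% of all protein-coding genes). HOXB had 9 of 10 genes on with a median of 8.47 FPKM, HOXC 8 of 9 with a median of 4.08, HOXD 5 of 9 with a median of 3.0 and HOXA 6 of 11 with a median of 1.71. HOXC10 was the highest at 22.4, 24.3 and 23.6 FPKM, followed by HOXB7 at 17.9, 22.5 and 19.8 FPKM and HOXB13, the last gene of its cluster, at 13.7, 11.3 and 12.7 FPKM. HOXB2 read 7.81, 12.3 and 14.5 FPKM and HOXB9 10.1, 10.5 and 11.1 FPKM. HOXB1 had no count and HOXD12 was off at 0.0707, 0.0467 and 0 FPKM. By paralog group, 6 of 12 genes of groups 1 to 4, 10 of 11 of groups 5 to 8 and 12 of 16 of groups 9 to 13 were on. Neighbouring HOX genes share transcripts and overlap in the table, so a low value next to a high one is uncertain.

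**Figure D5:**
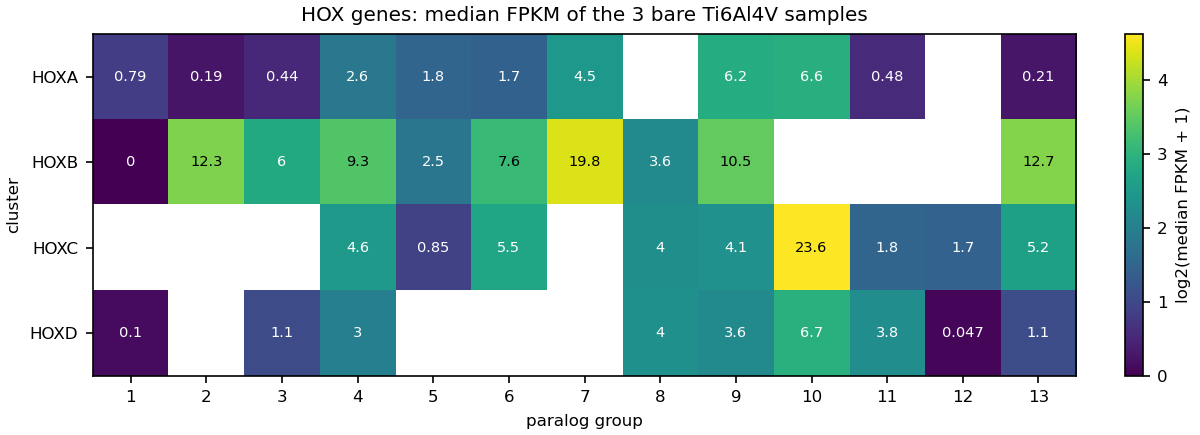
Median FPKM of the 39 HOX genes over the 3 bare Ti6Al4V samples, by cluster (rows) and paralog group (columns), coloured by log2(median FPKM + 1), with white where no gene was counted. HOXC10 (23.6 FPKM) and HOXB7 (19.8 FPKM) are highest and HOXB1 is at 0.

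Of the 33 BMP and TGF-beta ligands and antagonists 15 were on (45.5%, against 58.9% of all protein-coding genes), with antagonists and binding proteins leading. FSTL1, a secreted glycoprotein, read 102, 108 and 110.1 FPKM, the BMP antagonist NBL1 52.8, 52.5 and 63.1 FPKM, GDF6, a BMP-family ligand, 40.1, 46.2 and 50.0 FPKM, and CHRDL1, another antagonist, 28.9, 32.6 and 32.9 FPKM. TGFB1 read 22.2, 27 and 31.6 FPKM. The osteogenic ligand BMP2 was off at 0.0383, 0.0504 and 0.0884 FPKM. Among 28 Wnt ligands and antagonists 9 were on (32.1%), led by DKK3, a relative of DKK1, at 96.9, 112 and 109 FPKM. The antagonists SFRP1 and DKK1 read 103, 106 and 112 and 38.6, 44.4 and 41.2 FPKM. The ligands WNT5B and WNT9A read 28, 35.7 and 39 and 9.55, 11.2 and 12.2 FPKM. Within each sample DKK3 exceeded WNT5B by 2.78- to 3.46-fold, SFRP1 by 2.88- to 3.69-fold and DKK1 by 1.06- to 1.38-fold.

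Messages of dividing cells were present at day 7, with 11 of 12 proliferation genes on (91.7%, against 58.9% of all protein-coding genes). PCNA, the replication clamp, read 41.5, 52.5 and 52.8 FPKM, CCND1 39.3, 43.3 and 46.1, CCNB1 24.9, 25.5 and 27.1, TOP2A 20.3, 27.8 and 25.6 and MCM2 12.5, 14.9 and 17.2. Of 16 genes often altered in osteosarcoma 8 were on (50.0%). CDK4 read 34, 38.6 and 41.2 FPKM, VEGFA 29, 32.4 and 44.6, the cell cycle inhibitor CDKN1A 30.4, 29 and 35.2 and RB1 6.52, 8.12 and 7.93. The cell cycle inhibitors CDKN2A and CDKN2B, named after their values were seen, had 68, 4 and 7 and 35, 0 and 0 counts, nearly all in replicate 1, and both were off without it. TERT, the catalytic part of telomerase, was off, and its RNA, TERC, was split at 1.39, 0.0347 and 0.25 FPKM. TERC overlaps another row on its strand, Telomerase-vert, with 34, 9 and 2 counts, so its values are uncertain.

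Interferon-linked genes were high throughout. A list of 42 genes known to be induced by interferon was put together after BST2, IFITM1, IFI6 and IFITM3 had been seen among the highest nuclear genes, so its counts describe these samples and support nothing. Of its 41 genes with a row 40 were on, with a median of 35.2 FPKM against 2.22 over protein-coding genes. BST2 (tetherin, chromosome 19, 17402939 to 17405630), which holds budding virus to the cell, ranked 2 among nuclear genes. IFI6, an inhibitor of cell death in mitochondria, read 408, 604 and 585 FPKM, lowest in replicate 1, IFITM3 569, 542 and 545 FPKM and ISG15, a ubiquitin-like modifier, 312, 322 and 307 FPKM. IFIT1, which binds viral RNA, read 149, 175 and 152 FPKM and the antiviral GTPase MX1 70.8, 68.6 and 69.7 FPKM. ISG20 was the exception, at 1.16, 0.869 and 0.987 FPKM. All 14 genes of the MHC class I list, chosen in the same way, were on, among them HLA-C at 418, 430.3 and 453 FPKM and the peptide transporter TAP1 at 115, 121 and 124 FPKM, with the caution that HLA genes are near-identical and variable.

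The interferons themselves were low. Of 14 interferon genes with a row 1 was on, IFNE, the epsilon interferon of mucosal tissue, at 6.78, 7.2 and 5.84 FPKM. IFNB1 read 0.142, 0.376 and 0.513 FPKM from 8, 21 and 27 counts, and the 3 lambda interferons had no count. The alpha interferons are near-identical to each other and their values are uncertain. IFNAR1, a chain of the receptor for alpha and beta interferon named after its values were seen, was on at 4.12, 4.74 and 4.76 FPKM, and IFNAR2 lay between at 0.562, 0.808 and 0.67 FPKM.

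The promoters of the 5 highest interferon-linked genes with an entry in the RefSeq table (GRCh38.p14) are shown because they carry the letters that interferon-activated factors are known to read. Each line gives the 170 bases before a RefSeq start of transcription, 5′ to 3′ on the strand of the gene. Each match to GAAANNGAAA on that strand or its complement is in capitals. Overlapping matches are joined.

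BST2: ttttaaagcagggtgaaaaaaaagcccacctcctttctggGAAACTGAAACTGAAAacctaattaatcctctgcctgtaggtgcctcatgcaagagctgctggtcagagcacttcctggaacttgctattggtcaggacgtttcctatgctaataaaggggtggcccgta
IFITM1: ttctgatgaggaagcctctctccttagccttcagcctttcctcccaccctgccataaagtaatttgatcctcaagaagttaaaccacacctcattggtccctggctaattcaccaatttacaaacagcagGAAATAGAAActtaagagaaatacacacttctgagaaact
IFI6: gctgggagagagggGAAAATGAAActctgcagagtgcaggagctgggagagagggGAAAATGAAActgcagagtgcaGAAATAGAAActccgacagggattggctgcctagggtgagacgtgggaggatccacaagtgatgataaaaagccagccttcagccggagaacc
IFITM3: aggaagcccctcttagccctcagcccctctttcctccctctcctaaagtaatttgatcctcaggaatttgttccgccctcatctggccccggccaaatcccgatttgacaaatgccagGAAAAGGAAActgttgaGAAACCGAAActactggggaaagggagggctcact
ISG15: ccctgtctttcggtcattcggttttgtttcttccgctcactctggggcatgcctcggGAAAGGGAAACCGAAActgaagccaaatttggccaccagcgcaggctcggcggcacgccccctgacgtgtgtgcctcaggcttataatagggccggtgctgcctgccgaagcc

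The windows lie at chr19:17405631-17405800 (minus strand) for BST2, chr11:313870-314039 (plus strand) for IFITM1, chr1:27672193-27672362 (minus strand) for IFI6, chr11:320861-321030 (minus strand) for IFITM3 and chr1:1013327-1013496 (plus strand) for ISG15. The deposited rows of IFITM1 (310041 to 315272) and IFITM3 (319676 to 329475) begin upstream of these windows, so the starts used are not the outermost ones. Counted from -1 at the base before the start, the first match begins at -130 in BST2, at -40 in IFITM1, at -156 in IFI6, at -52 in IFITM3 and at -113 in ISG15. In the 250 bases before the start, GAAANNGAAA occurred on either strand in 3.02% of all 35116 promoters of the table, and in at least 1 promoter of 21 of the 30 listed interferon-linked genes that had an entry. Counted per gene, 3.59% of the 13358 protein-coding genes with an entry had it, 3.49% of those on and 4.06% of those off. A match is a string of letters and no evidence of binding.

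Promoters of on and off genes differed in their CG pairs and in matches to TATAAA. Symbols matched for 13358 of the 17123 protein-coding rows, and the CpG ratio, observed CG pairs over those that the C and G content would give, was taken over the 250 bases before the start, using the promoter with the highest ratio where a gene had several. It had a median of 0.871 in 8259 on genes, 0.722 in 2833 genes between and 0.446 in 2266 off genes, with 24, 18 and 8 CG pairs in the median promoter. TATAAA on the strand of the gene within the last 50 bases occurred in 2.12% of on genes, 4.84% of genes between and 6.84% of off genes, against 3.5% of all 13358 matched genes and, counted per promoter, 2.63% of the 35116 promoters. Among the 100 highest nuclear genes with an entry 12 had it. The pattern is a description across genes, which are not independent. Taking the highest CpG ratio can favour genes with several promoters. The filament gene VIM and the matrix gene BGN, both on, and a pair of mineral genes with no count, IBSP and DMP1, are shown over the 120 bases before the start with each CG pair in capitals.

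VIM: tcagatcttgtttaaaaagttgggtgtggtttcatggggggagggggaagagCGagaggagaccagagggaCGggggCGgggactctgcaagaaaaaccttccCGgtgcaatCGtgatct
BGN: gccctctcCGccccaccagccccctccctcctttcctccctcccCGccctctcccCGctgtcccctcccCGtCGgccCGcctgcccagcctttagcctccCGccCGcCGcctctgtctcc
IBSP: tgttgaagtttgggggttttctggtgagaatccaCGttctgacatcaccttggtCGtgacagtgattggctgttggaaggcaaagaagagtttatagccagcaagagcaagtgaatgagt
DMP1: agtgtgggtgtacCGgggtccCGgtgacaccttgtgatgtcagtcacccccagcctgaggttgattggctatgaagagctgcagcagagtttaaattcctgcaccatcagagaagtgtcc

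These windows lie at chr10:17228121-17228240 (plus strand) for VIM, chrX:153494860-153494979 (plus strand) for BGN, chr4:87799434-87799553 (plus strand) for IBSP and chr4:87650160-87650279 (plus strand) for DMP1. VIM held 5 CG pairs and BGN 9, whereas IBSP and DMP1 held 2 each. The 4 genes were picked to show the range and do not stand for their groups.

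Some genes differed between samples in an all-or-none way. Of 36385 rows 127 were split (0.349%), of which 30 coded for protein. In 35 of the 127 rows replicates 2 and 3 were both below 0.1 FPKM, and in 23 replicate 1 alone was. Replicate 2 alone was below in 32 rows and replicate 3 alone in 28. Among the 10 split genes with a symbol and the highest values, all but PIK3R2 were small nuclear RNAs: RNU1-1 had 2385, 0 and 5 counts, RNU1-3 2379, 0 and 3, RNU2-2P 278, 1 and 1, and RNU4-2 104, 0 and 0. The U2 rows have many near-identical copies and are uncertain. These are the classes in which replicate 1 stood apart.

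The highest split protein-coding gene was PIK3R2 (chromosome 19, 18153163 to 18170532), a regulatory subunit of PI3-kinase, with 18, 3321 and 3807 counts. An unnamed row on the same strand, ENSG00000268173, spans PIK3R2 and the neighbouring IFI30 (18153158 to 18178117) and had 2909, 113 and 35 counts. IFI30, named after its values were seen, had 8, 268 and 342 counts. The row that spans both genes was thus high in the sample in which they were low, and these values are uncertain. Of the 30 split protein-coding rows 18 overlapped another row on the same strand, against 2903 of the 10078 protein-coding rows that were on. ITM2A, also split, overlapped none and had 0, 679 and 491 counts. PIK3R2, IFI30 and ITM2A were on without replicate 1.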

How the data were processed

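Total RNA of MG-63 cells was sequenced, and only the 3 samples on bare Ti6Al4V were used. Per the submitters' processing notes the tools were cutadapt 2.10, HISAT2 2.2.1, StringTie 2.1.4, featureCounts 2.0.1 and limma, on GRCh38, with no roles given. The authors deposited, per the file headers, a raw count and an FPKM value for each of 36385 genes and each sample. The library totals behind the FPKM were read from mitochondrial genes and exceeded the summed counts by 7.58%, 4.62% and 3.92%, so FPKM values run slightly low. Strand use and how multi-mapping reads were counted is not given in the sources used here. Rows with no symbol, 9638 of them, held 7.07%, 1.69% and 1.22% of the counts.

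Samples were grouped by their labels. States (on at 1 FPKM, off below 0.1 FPKM), ranks by median and list counts were computed with Python 3.11.15 and pandas, and scaling factors and the coefficient of variation with edgeR 4.0.16 in R 4.3.3 (genes with at least 10 counts in every sample), tested on simulated data. The 48 gene lists held 710 symbols, of which 36 were not analysed here for want of a matching row, and 6 lists were added later. The members and lists were chosen with earlier results of these data known. The text names the 25 highest genes, all on, split or defining genes of the bone lists, up to 5 high, 3 off and 3 split genes of each other list, the 15 highest receptors and factors and the 10 highest split genes. Others were chosen after their values were seen. Some genes that the rule names are not reported here, though list counts include them. Alternatives were other thresholds, TPM, TMM and DESeq2 scaling, filters, leaving out each sample and, chosen after seeing the data, coding transcript length and rows without overlap. Sequences and their coordinates are RefSeq's, GRCh38.p14, and gene coordinates those of the deposited table.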

Additional observations from a re-analysis of the deposited data

How the results depend on the processing

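The count of genes on (11199 of all rows, 10078 coding) stayed within 1.5-fold under every alternative run, from 9065 with a threshold of 2 FPKM to 15796 as TPM without ribosomal DNA, mitochondrial and 7SL rows, and 11883 by coding transcript length. The count off depended on the scale: of 13077 genes off, 7459 were below 0.1 as TPM, 6657 as TPM without those rows, and 4724 had no count in any sample. The coding counts were 3186, 1625, 1363 and 810. TPM values are larger than FPKM throughout, by construction. The 127 split rows became 406 with a threshold of 0.5 FPKM, 58 with 2 FPKM, 987 as TPM, 1730 as TPM without those rows, 58 among rows with no overlap on the same strand, and 33 to 87 when a sample was left out. The 33 is without replicate 1 and the 83 without replicate 2, and fewer samples give fewer splits by construction. Of the 25 highest genes 14 were shared with a ranking by counts, 10 with one that leaves out mitochondrial, ribosomal DNA and small RNA rows, and 20 by transcript length. The median SD of log2(FPKM + 1), 0.12, was 0.0688 with no filter and 0.0765 to 0.109 with a sample left out, lowest without replicate 1. Of the 297 genes named in the text 41 changed state as TPM, 51 as TPM without those rows, 15 by transcript length, 12 without replicate 1, none without replicate 2 and, without replicate 3, SCX and FGFR3, which were then off. With TMM or DESeq2 scaling only COL11A1 changed, and it then lay between. Of 54 lists the members on moved by over 1.5-fold for 14 as TPM, for 4 and 5 with thresholds of 0.5 and 2 FPKM, for 2 by transcript length, and for the T cell list without replicate 1, where 1 gene was on. Among the genes that changed, ALPL, ENPP1, MGP, PHEX and MSX2 were on as TPM, and RUNX2 was on as TPM without those rows. The mineralization list had 9 genes on as TPM in place of 5. The early osteoblast list had 7 in place of 4, and 8 as TPM without those rows. No paired analysis was possible because only 1 group was described. Depth limits genes without a count to below 0.0513 CPM at most. With 3 samples no sample was tested as an outlier.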

Other observations

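Proteases and cytokines were not covered by the lists used above, and the lists behind the values here were put together after the levels were seen. Of 21 matrix proteases and inhibitors 11 were on. After MMP2 the highest were the inhibitors TIMP1 at 161, 172 and 176 FPKM and TIMP2 at 154, 140.0 and 146 FPKM, PLAU (urokinase) at 75, 71.6 and 81 FPKM and MMP14, the membrane protease that activates MMP2, at 65.4, 66.2 and 73.2 FPKM. MMP9, the other gelatinase, was off, and so was the collagenase MMP13. Of 26 cytokines and chemokines 10 were on. CCL2, which draws monocytes, read 54.5, 57.5 and 47.1 FPKM, CCL26 12.8, 14.1 and 17.8 and LIF 11.1, 11.8 and 13.6, while IL6 lay between at 0.612, 0.599 and 0.832 FPKM, and TNF, CSF2 and CSF3 were off. Of 12 small proteoglycans 4 were on: BGN, DCN at 18.2, 21.2 and 18.9 FPKM, LUM at 16.1, 18.9 and 14.5 FPKM and ASPN.

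Around CDKN2A on chromosome 9 (21967752 to 21994873, GRCh38) levels were uneven. On one side, KLHL9 read 86.1, 108 and 98.9 FPKM, and FOCAD and HACD4 farther out 7.01, 8.78 and 8.28 and 5.04, 6.55 and 6.48 FPKM. Of the interferon genes between HACD4 and MTAP only IFNE was on, at 6.78, 7.2 and 5.84 FPKM. The others were low, and IFNW1, IFNA21, IFNA4, IFNA16 and IFNA2 were off. The long non-coding MIR31HG had 7316, 9645 and 9249 counts. MTAP, the closest of these to CDKN2A, read 0.782, 0.983 and 1.16 FPKM from 717, 946 and 1057 counts. CDKN2A had 68, 4 and 7 counts, CDKN2B 35, 0 and 0, the antisense RNA CDKN2B-AS1 4, 6 and 10 and DMRTA1 12, 4 and 0. ENPEP, an aminopeptidase, had 102, 0 and 0 counts and IGFBP5 503, 24 and 15, likewise nearly all in replicate 1, and both were off without it. These genes were picked after their values were seen, and what sets replicate 1 apart in them was not tested.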
